A study of Mus musculus with 6 samples.

Results

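Epas1 was examined as 1 gene, over a window of 100 kb on mouse chromosome 17 (mm9, plus strand, chr17:87140001-87240000) that held 100 of the 2638957 bins of 1 kb on chromosomes 1 to 19 and X. The gene was selected on the measured difference between the Th1 and Th2 Ezh2 libraries in the 3 kb chr17:87153001-87156000, called the promoter here, which take in the 5' end of Epas1 near 87153200 and the start of the transcribed sequence. The promoter values are therefore a description and carry no test. Coordinates of the gene came from the rule that defined the window, and its 3' end was not placed.

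Epas1 encodes HIF-2α, a transcription factor subunit that is degraded when oxygen is plentiful, through hydroxylation and the VHL ubiquitin ligase, and that pairs with ARNT to switch on hypoxia response genes when oxygen is scarce. It is best known for its work in endothelial cells and in the cells that make erythropoietin. Ezh2 is the methyltransferase of Polycomb repressive complex 2, which places the repressive methyl mark on lysine 27 of histone H3, most often over CpG-rich promoters of genes that are kept silent.

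The libraries were chromatin immunoprecipitation sequencing libraries of CD4+ T cells, sorted as naive (CD44low CD62Lhigh) from spleens of C57BL/6 mice and then turned into Th1 or Th2 cells in culture. Cells of both types received antibodies to TCRβ and CD28 for 2 days with 15 ng/ml IL-2, and were grown for 3 more days without these antibodies. The Th1 cells were given 10 ng/ml IL-12 and an antibody that blocks IL-4, and the Th2 cells 100 ng/ml IL-4 and an antibody that blocks IFN-γ. Each cell type had 1 library of an Ezh2 pull-down (polyclonal antibody), 1 of a control pull-down (rabbit IgG) and 1 of input DNA, and the labels do not say whether mice were pooled. The Th2 control antibody file ended before the window and was not used, so 5 of 6 libraries entered. T helper marker genes could not be placed on mm9, so the cell types rest on the labels.

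The values are distinct positions, meaning each deposited interval of a read counted once at its midpoint. Ezh2 libraries had 10809666 (Th1) and 14963599 (Th2) positions, the inputs 15578675 and 12862628, and the Th1 control antibody 9326717. Levels were divided by these totals and are given per kb and per 10000000 positions. With 1 library in each group, no replicate spread could be measured. Intervals are 95% exact ones (Clopper-Pearson) for counting error alone, and every comparison is between libraries, not conditions. Reads amplified by PCR without molecular identifiers are not independent molecules. A signal present in fewer cells and a weaker signal in each cell cannot be told apart in such bulk libraries. The 2 Ezh2 libraries also carry different run labels, so that cell type and sequencing run cannot be told apart.

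At the Epas1 promoter, Ezh2 stood far above background in the Th1 library and much less so in the Th2 library. The 3 kb held 143 Ezh2 positions in Th1, 42 Ezh2 positions in Th2, 20 input positions in Th1, 21 input positions in Th2 and 11 positions of the Th1 control antibody. Per kb and per 10000000 positions, the Ezh2 level was 44.1 in Th1 (95% interval 37.2 to 51.9) and 9.36 in Th2 (6.74 to 12.6). The 3 background libraries lay between 3.93 and 5.44 on the same scale. Only the Th1 Ezh2 library was thus clearly set apart from the rest, and its interval did not overlap any of the others.

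The ratio of Th1 to Th2 Ezh2 at the promoter was 4.71 (3.32 to 6.82). In Th1, Ezh2 was 10.3-fold over input (6.43 to 17.4). In Th2 it was 1.72-fold (0.995 to 3.06). Whether the Th2 interval held 1 turned on the setting: it did not with background scaling (2.42, 1.40 to 4.30) or the input of the other cell type (2.19, 1.26 to 3.93), and it did with 1 kb more on each side of the promoter (1.07, 0.710 to 1.62). The fold over input in Th1 was 5.99 times that in Th2 (2.78 to 12.8), but 2.45 times (0.619 to 8.97) in the single bin of the 5' end. The inputs had a Th1 to Th2 ratio of 0.786 (0.404 to 1.52), and the control antibody of Th1 stood at 0.919 times its input (0.398 to 2.01). Set against the control antibody in place of the input, Ezh2 in Th1 was 11.2-fold (6.08 to 23.0).

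Within the 3 kb, the Th1 signal was highest in the middle. The bin with the 5' end held 39 Th1 and 16 Th2 Ezh2 positions, the next bin 67 and 17, and the third bin 37 and 9. The bin just before the promoter held 12 and 7, and the bin just after it 21 and 7. In Th1 the signal therefore ended abruptly on the upstream side and tailed off into the gene. Outside the promoter and the 4 kb that follow it, the other 93 bins of the window held 3 to 19 Th1 Ezh2 positions with a median of 8. All 3 promoter bins lay above that range in Th1. In Th2 the same 93 bins held 0 to 18 positions, also with a median of 8. The Th2 promoter bins, with 9 to 17, lay inside that range, but those with 16 and 17 were near its top.

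**Figure D1:**
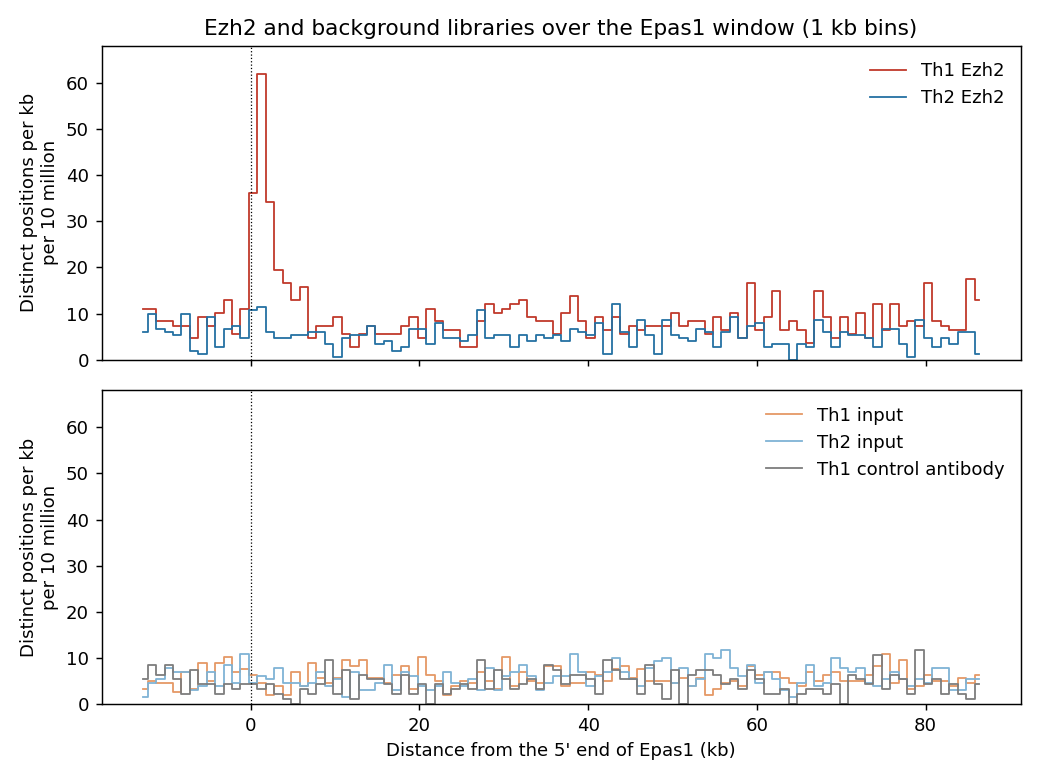
Distinct positions per kb and per 10000000 in each 1 kb bin of the Epas1 window against the distance from the 5' end (dotted line), for the 2 Ezh2 libraries (upper panel) and for the inputs and the Th1 control antibody (lower panel). The Th1 Ezh2 library rises to 62.0 in the bin centred 1.3 kb after the 5' end, where the Th2 Ezh2 library stands at 11.4, and the background libraries show no rise there.

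By the one-sided exact binomial test of each 1 kb bin against input (Benjamini-Hochberg adjusted p below 0.05 over all tested bins and at least 2-fold), 5 of the 99 tested bins of the window were called in Th1. They were the 3 promoter bins and the 2 bins after them. Of all tested bins, 0.992% were called in the Th1 Ezh2 library. In Th2, 0 of 87 tested bins of the window were called, where 1.21% of all tested bins were called. The Th1 control antibody gave 0 of 83, against 0.00151% of all tested bins. The Epas1 window was chosen on these Ezh2 values, so the called bins only describe it. With a fold of at least 4 and an adjusted p below 0.001, the 3 promoter bins were still called in Th1 and 0 in Th2. Over all chromosomes used, 6200 bins in Th1 and 8836 in Th2 were called at that setting.

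At finer scale the Th1 signal was highest not on the 5' end itself but just inside the gene. In steps of 200 bases, the 6 steps from 0.4 to 1.6 kb after the 5' end held 12 to 17 Th1 Ezh2 positions each, 87 in all, against 19 in Th2, 10 in the Th1 input and 8 in the Th2 input. The ratio of Th1 to Th2 over these steps was 6.34 (3.83 to 11.0). The first 0.4 kb after the 5' end held 10 Th1 and 6 Th2 positions, and the 3 kb before it 33 and 30, at ratios of 2.31 (0.760 to 7.72) and 1.52 (0.900 to 2.58). These parts differ in length. Each step of 200 bases in the first 0.4 kb held 5 Th1 positions, and those in the 3 kb before held 0 to 5. From 1.6 to 4.4 kb there were 79 and 22 positions (ratio 4.97, 3.07 to 8.38). Beyond that, up to 8 kb, they were 38 and 29, and the ratio was 1.81 (1.09 to 3.05). The deepest stack of Th1 intervals, 15 of them, lay 1194 bases after the 5' end, where the Th2 Ezh2 library and both inputs had 1 interval each and the Th1 control antibody 0. The 5' end is given only as near 87153200, and intervals have no strand, so these distances are approximate. The limits of the segments were chosen after the values were seen.

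**Figure D2:**
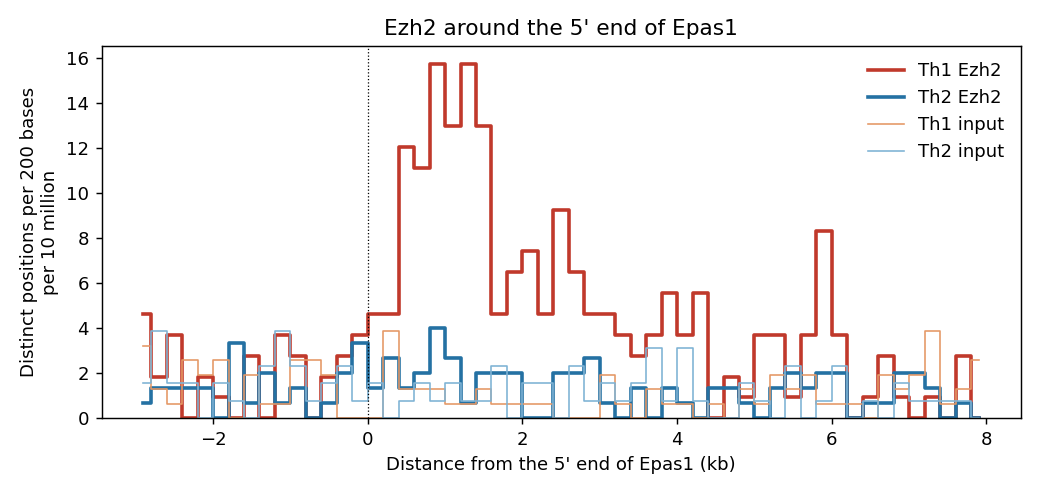
Distinct positions per 200 bases and per 10000000 around the 5' end of Epas1 (dotted line) for the Ezh2 and input libraries. The 6 steps from 0.4 to 1.6 kb hold 12 to 17 Th1 Ezh2 positions each before scaling, where the Th2 Ezh2 library holds 19 positions in all and the inputs 10 and 8.

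The Th1 signal was made of many separate positions and not of a few repeated ones. The 143 Th1 positions came from 282 reads, 1.97 reads per position, against 2.24 over the whole Th1 Ezh2 library. Of them, 62 had a single read, and the most reads at 1 position was 10. In Th2, 42 positions came from 67 reads, or 1.60 per position, against 2.04 over that library. With all deposited reads counted, the ratio of Th1 to Th2 was 5.29 (4.04 to 7.01).

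Among regions of at least 3 kb in which both Ezh2 libraries together were called over both inputs, the Epas1 promoter was 1 of 2902, and 1 of 706 that were exactly 3 kb long. Relative to the median ratio of all these regions, which was 0.853 on the scale of library totals, Epas1 stood at 5.52, the highest of the 2902. This rank uses the values that chose the gene and is a description. It holds among these regions only. Over the chromosomes used, 766 of 769177 windows of 3 kb had a Th1 to Th2 ratio at or above the 4.71 of the promoter, the promoter itself among them. Windows with fewer positions than kb in either Ezh2 library were left out of that count. In all, 21 regions (0.724%) were called higher in Th1, Epas1 among them, at a ratio at least 2-fold over that median and an adjusted p below 0.05 (exact binomial test, two-sided, Benjamini-Hochberg over the regions). The next 3 in order were chr11:57479001-57482000, with 54 Th1 and 27 Th2 Ezh2 positions, at 3.24 over the median; chr15:88966001-88972000, with 188 and 102, at 2.99; and chr9:64784001-64787000, with 53 and 31, at 2.77. The distance from the 5.52 of Epas1 to the 3.24 of the next region also comes from the values that chose the gene.

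Epas1 combined a high fold over input in Th1 with a low one in Th2. Its Th1 fold was the 20th highest of the 2902 regions and its Th2 fold the 14th lowest, while its control antibody over input ranked 1687. Epas1 was chosen on these Ezh2 values. Regions entered on both Ezh2 libraries together, so a high Th1 signal alone could let a region in. The Ezh2 ranks and the counts that follow therefore only describe Epas1. A fold of 2 or more in Th1 with one below 2 in Th2 was found in 37 of the 2902 regions, and the reverse in 66. Another 75 regions had a Th1 fold within 1.25 times that of Epas1, from 8.24 to 12.9. Their Th2 folds ran from 4.15 to 36.1 with a median of 10.6, and 0 of the 75 were below 2, where Epas1 had 1.72. The nearest regions of at least 3 kb on chromosome 17 lay 952 kb before the promoter, at chr17:86198001-86201000, and 880 kb after it, at chr17:88036001-88039000. The first had Ezh2 6.28-fold over input in Th1 and 5.07-fold in Th2, and the second 4.59-fold and 2.58-fold, so both were enriched in both libraries.

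**Figure D3:**
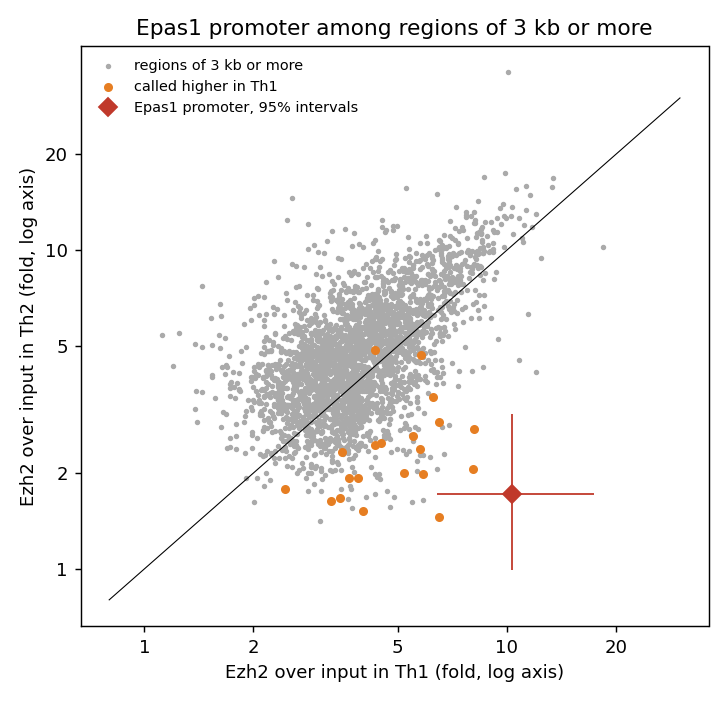
Ezh2 over input in Th1 (x axis) and in Th2 (y axis) for each region of at least 3 kb, both on log axes, with the regions called higher in Th1 in orange and the Epas1 promoter as a diamond with its 95% counting intervals. Epas1 lies at 10.3 and 1.72, well below the diagonal of equal folds.

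Away from the promoter, Ezh2 was also higher in the Th1 library, by less. Before the promoter, the 13 kb of the window had 124 Th1 and 117 Th2 Ezh2 positions and a ratio of 1.47 (1.13 to 1.91). After it, the 74 kb called the gene body here had 674 and 567 and a ratio of 1.65 (1.47 to 1.84). The last 10 kb of the window, named the 3' end here although the end of the gene was not placed, had 107 and 62 and a ratio of 2.39 (1.73 to 3.32). The inputs gave ratios of 1.04 (0.789 to 1.37), 0.976 (0.872 to 1.09) and 1.04 (0.742 to 1.45) over the same 3 parts. In each part the Ezh2 interval lay above 1 while the input interval held it. The fold over input in Th1 was 1.41 times that in Th2 before the promoter (0.962 to 2.07), an interval that held 1. It was 1.69 times (1.43 to 1.98) in the gene body and 2.31 times (1.44 to 3.70) in the last 10 kb.

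These ratios were read against those of non-overlapping windows of the same length along the chromosomes used. The windows lay on a fixed grid from the start of each chromosome. Those with fewer positions than kb in either compared library were left out, here and in the counts of windows below. For the 74 kb of the gene body, 33419 windows had a median ratio of 0.991, with a 5th percentile of 0.798 and a 95th of 1.20, and 99.97% of them lay below the 1.65 of Epas1. The 9 that did not included 2 that overlap the stretch around Epas1. For the 13 kb before the promoter, the 95th percentile was 1.45, just under the 1.47 measured there. For the last 10 kb it was 1.52, and 99.90% of windows lay below the 2.39 measured. The input ratio of the gene body lay above 41.2% of windows. The Th1 control antibody over input, 0.771 there (0.672 to 0.883), was low, above only 1.28% of windows, and its part in the Ezh2 ratio was not tested. The percentiles describe how such ratios vary along the genome in these libraries and are not tests.

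The gene body excess was uneven along its length. The 4 kb right after the promoter held 70 Th1 and 30 Th2 positions, a ratio of 3.23 (2.08 to 5.13), and without them the gene body still stood at 1.56 (1.38 to 1.75). Cut into 7 blocks of 10 kb, the remaining 70 kb had ratios from 1.32 to 1.94, and all 7 were above 1, with 4 intervals wholly above it. Windows of 10 kb along the chromosomes used had a median ratio of 1.00 and a 95th percentile of 1.52. The inputs of these blocks had ratios from 0.550 to 1.40, and 5 of the 7 intervals held 1. In the first block, chr17:87160001-87170000, the input ratio of 1.40 (1.02 to 1.95) was above the Ezh2 ratio of 1.32 (0.930 to 1.88), and the fold over input was 0.889 for Th1 Ezh2 and 0.941 for Th2 Ezh2. That block thus showed no Th1 excess over input. Of the 70 single bins, 54 had more Ezh2 per 10000000 in Th1, against 36 with more input in Th1. The share of all 1 kb bins with more Ezh2 in Th1 is not given here, so the 54 only describe this stretch. Over these 70 kb, the Th1 fold over input was 1.34 (1.20 to 1.50) and the Th2 fold 0.850 (0.753 to 0.960), while the Th1 control antibody stood at 0.786 (0.684 to 0.902). Windows of that length had a median fold of 0.879 in Th1 and 0.876 in Th2. The Th1 fold lay above 91.8% of them and the Th2 fold above 44.9%, so the Th2 level was an ordinary one. Of the tested bins there, 0 of 69 were called in Th1 and 0 of 63 in Th2. Over all tested bins the shares were 0.992% and 1.21%, so 0 calls are ordinary for such a stretch and do not describe the excess. By its block ratios the excess was low and broad, unlike the sharp one at the promoter. Measured within each library, and with no scaling between them, the promoter held 7.15 times the Ezh2 per kb of the gene body in Th1 (5.93 to 8.58) and 2.01 times in Th2 (1.43 to 2.75), each divided by the same ratio of its input, whose own counting error is not in these intervals. That Th2 value rests on few positions and on the exact limits of the promoter, as it fell to 1.25 (0.933 to 1.65) with 1 kb more on each side.

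The broad excess went on past the end of the window. At chr17:87240001-87290000, a stretch of 50 kb, the Ezh2 libraries had 493 (Th1) and 287 (Th2) positions, the inputs 416 and 352, and the Th1 control antibody 224. The ratio of Th1 to Th2 Ezh2 was 2.38 (2.05 to 2.76), that of the inputs 0.976 (0.845 to 1.13). The Th1 fold over input was 1.71 (1.50 to 1.95), where the median of such windows was 0.880, and the Th2 fold 0.701 (0.598 to 0.821), where the median was 0.876. Th1 thus lay above its median and Th2 below its own. Of 49369 windows of 50 kb, whose Ezh2 ratios had a 95th percentile of 1.24, 0 reached 2.38. The 1.71 of Th1 lay above 97.2% of windows and the 0.701 of Th2 above 12.6% of them, so neither fold by itself was as far from the others as their ratio. This stretch was singled out after its values were seen, and 0 of its 1 kb bins were called in any library. Over all tested bins, 0.992% were called in Th1 Ezh2, 1.21% in Th2 Ezh2 and 0.00151% in the Th1 control antibody. At such shares 0 calls are ordinary for 50 kb.

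Steps of 10 kb, also chosen after the values were seen, showed where the ratio changed. In the 100 kb before the window, 10 steps had Th1 to Th2 ratios from 0.722 to 1.33 with a median of 0.987, and 0 of 10 exceeded 1.52, the 95th percentile of all such steps. In the window the 10 steps ran from 1.32 to 3.39, and 6 exceeded it. In the next 50 kb all 5 steps lay between 2.21 and 2.71, and 5 of 5 exceeded it. The step after these, at chr17:87290001-87300000, had 82 Th1 and 111 Th2 positions and a ratio of 1.02 (0.759 to 1.37). Over the 100 kb from there the ratio was 1.21 (1.10 to 1.33), with 1 of 10 steps above 1.52. As a whole, these 100 kb still lay above 96.7% of windows of that length, whose 95th percentile was 1.18. At the upstream side the ratio was 1.02 (0.724 to 1.44) in the last step before the window and 1.43 (1.06 to 1.94) in its first. These intervals overlap and the 1.43 lay below 1.52, so the form of the change on that side was not resolved. On the far side the ratio fell from 2.71 in the step that ends at 87290000 to the 1.02 of the next. That fall rests on a single step, whose input ratio was 1.73 (1.24 to 2.45). The steps that followed it stood at 1.46 (1.09 to 1.95) and 1.38 (1.02 to 1.89), so no sharp limit was placed there.

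**Figure D4:**
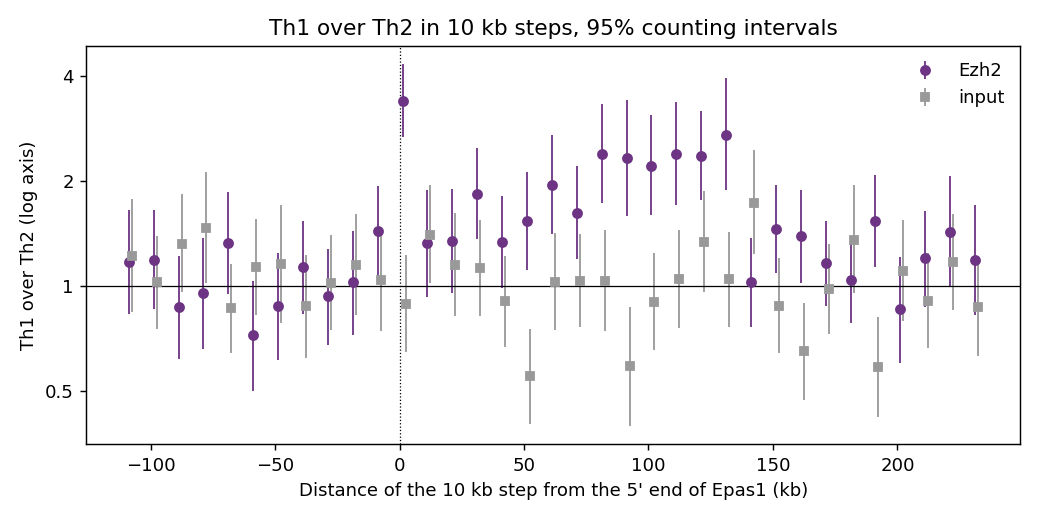
Ratio of Th1 to Th2 positions in steps of 10 kb (log axis) against the distance from the 5' end of Epas1 (dotted line), for Ezh2 (circles) and input (squares), with 95% counting intervals. The Ezh2 ratios are between 0.722 and 1.33 before the window, between 1.32 and 3.39 in it and between 2.21 and 2.71 in the 50 kb after it.

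The window and these 50 kb, chr17:87140001-87290000, had 1541 Th1 and 1075 Th2 Ezh2 positions in their 150 kb. The ratio was 1.98 (1.83 to 2.15) for Ezh2 and 0.982 (0.905 to 1.06) for the inputs. Of 16541 windows of 150 kb, 0 reached 1.98. Without the promoter and everything up to 4 kb after it, the remaining 130 kb on the downstream side had a ratio of 1.88 (1.72 to 2.05), and 0 of 19076 windows of that length reached it. The limits of the stretch were set on these ratios, which raises its rank. The ratio was thus nearly as high without the promoter. Across all 150 kb, the Th1 fold over input was 1.69 (1.57 to 1.82), the Th2 fold 0.835 (0.767 to 0.909), and the Th1 control antibody over input 0.822 (0.747 to 0.904). Of windows of that length, 97.6% lay below this Th1 fold and 41.4% below this Th2 fold.

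Over 1000 kb to each side, the steps of this stretch were the highest. In steps of 50 kb, the 20 steps before the window had ratios from 0.794 to 1.15, and 11 of them were above 1. The 2 steps of the window stood at 1.95 and 1.72, and the one after it at 2.38. The remaining steps after the window ranged from 0.884 to 1.24. Counting the 2.38, 14 of the steps after the window were above 1. The 500 kb after the window, which hold that step, had a ratio of 1.22 (1.17 to 1.28), above 99.5% of windows of that length. For the 500 kb before the window the ratio was 1.03 (0.986 to 1.08), above 72.2%. Of the 40 steps outside the window, 3 exceeded the 95th percentile of 1.24 over 49365 such windows, and the other two of these were barely above it. In the RefSeq table, which follows another build (GRCm38.p6), Prkce is the protein-coding gene before Epas1 (gene ID 13819) and Tmem247 the one after it. Which genes the 50 kb past the window hold was not determined on mm9.

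**Figure D5:**
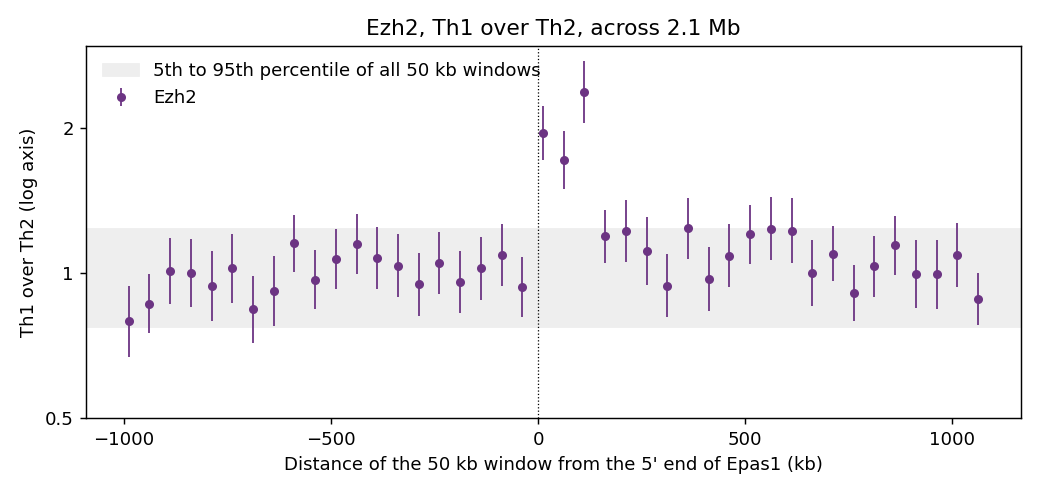
Ratio of Th1 to Th2 Ezh2 positions in windows of 50 kb (log axis) over 1000 kb to each side of the Epas1 window, with 95% counting intervals, and the 5th to 95th percentile of all such windows in grey. The points at 1.95, 1.72 and 2.38 are those of the Epas1 window and the 50 kb after it, and the others lie between 0.794 and 1.24.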

How the data were processed

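The authors deposited, per sample, intervals with the count of reads that share each one. The counts carry no strand and no normalization. CASAVA and mm9 are named per the submitters' processing notes; aligner settings, read extension and filters are not given in the sources used here. Nearly all intervals span 119 bases. Each interval was counted once at its midpoint on chromosomes 1 to 19 and X, and at least 99.69% of the intervals of a library were used.

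Genome-wide steps were the exact tests of 1 kb bins against input (at least 10 positions over both libraries, 0.5 added to each count for the fold) and of regions of at least 3 kb (called bins of both cell types together, gaps of at most 1 bin). Both were also run on counts simulated with counting error alone, which is what the tests assume. Those runs cannot show how the calls would hold with spread between libraries. Python 3.11.15, NumPy 2.4.6, pandas 2.3.3 and SciPy 1.17.1 were used. The named gene was Epas1, and regions were named by rank next to it and by distance. The members, parts and lists were chosen with earlier results of these data known. Alternatives were all reads, interval starts, background scaling, other promoter limits, equal depth, other backgrounds and stricter or no thresholds. The planned motif search was not made, as Epas1 had 0 entries in the promoter table.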

Additional observations from a re-analysis of the deposited data

How the results depend on the processing

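The ratio of Th1 to Th2 Ezh2 at the Epas1 promoter lay between 3.37 (the 1 kb bin of the 5' end) and 5.52 (divided by the median of regions) under 7 alternatives. Those of the gene body, the flank, the 3' end and the 50 kb after the window stayed inside their counting intervals under every alternative run for them. With the promoter taken as the 1 kb bin of the 5' end, Ezh2 over input in Th1 was 5.62-fold, against 10.3-fold, and promoter over gene body in Th1 3.90, against 7.15. With 1 kb more on each side, promoter over gene body was 4.63 in Th1 and 1.25 in Th2, against 2.01. Called 1 kb bins over all chromosomes numbered 13220 in Th1 and 17075 in Th2, but 71972 and 119127 with all reads and 6200 and 8836 with the stricter thresholds. With all reads, 11 of the 100 bins of the window were called in Th1 and 3 in Th2, 0 of the latter in the promoter. The 71972 and 119127 called over all chromosomes were out of 2638957 bins. Not all of these bins were tested, and shares of tested bins with all reads are not given here. The window counts with all reads therefore only describe the window. With library totals as the expected ratio, 8 regions were higher in Th1 and 59 in Th2, against 21 and 20. The 50 kb after the window and its alternatives, and the gene body without its first 4 kb, were chosen after seeing the data. Depth limits the promoter values, where the background libraries held 11 to 21 positions. The Th2 fold over input there ran from 1.07 with the wider promoter to 2.42 with background scaling; its interval also lay above 1 with all reads (1.56) and at equal depth (1.81). No paired analysis was possible because no group had more than 1 library, and no replicate could be left out for the same reason.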
